A study of Rattus norvegicus with 24 samples.

Results

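Transcripts of the angiotensin system were examined through 3 of the 32883 Ensembl gene rows in each table of a rat heart study: Ace (ENSRNOG00000062101), Agt (ENSRNOG00000018445) and Agtr1a (ENSRNOG00000018346). The rule names these rows by number and uses no measured value, but it was written with earlier results of these data known. All 3 rows were present in both tables. The symbols come with that choice. The tables carry Ensembl numbers alone, and the RefSeq gene table of assembly GRCr8 matched 0 of the 32883 numbers, so no symbol could be checked against an annotation and no gene was dropped for it.

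RNA was sequenced from hearts of rats of strain WI, in a left ventricular piece that included the septum (LV) and in the right ventricular free wall (RV). Rats were labelled CTL, read here as control, or DAAO. That short name usually stands for D-amino acid oxidase, which forms hydrogen peroxide from D-amino acids and serves as a chemogenetic source of oxidative stress. The 24 libraries make 4 groups of 6, and each of 12 animal numbers occurs once per ventricle. Neither sex, age, dose, duration nor the way the enzyme was delivered is in the labels, and the control treatment is not described. Whether each number is a separate rat is not stated, and p-values then measure the spread between libraries. All DAAO numbers are higher than all CTL numbers, so group and numbering cannot be told apart. Animal names are those of the tables, where C_ marks CTL and D_ marks DAAO.

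Agt encodes angiotensinogen, the precursor protein, which renin cuts to angiotensin I. Ace encodes angiotensin-converting enzyme, a membrane peptidase of endothelial and other cells that turns angiotensin I into angiotensin II and also degrades bradykinin. Agtr1a encodes the type 1a angiotensin II receptor, a G protein-coupled receptor through which angiotensin II constricts vessels and promotes growth and fibrosis in the heart. Rodents carry a closely similar second gene for the type 1 receptor, and how reads shared by such copies were counted is not given in the sources used here, so the Agtr1a values are uncertain to that extent. Drugs against the enzyme and the receptor are standard treatment of heart failure.

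Across the 3 genes, the converting enzyme rose in DAAO in both ventricles, by more than 2-fold in the left. Its right ventricular call lay close to the threshold and was lost in 8 of 20 alternative fits. Neither the precursor nor the receptor passed the test. In each ventricle 1 of the 3 genes was called by limma at an adjusted p under 0.05, against 37.3% of 14041 genes tested in the left and 26.5% of 13489 in the right ventricle. With 3 genes, such a count says nothing about the system as a whole. None of the 3 had a mean below 10 normalized counts in either table, the lowest being Agt at 21.4 in the left and 30.1 in the right ventricle. Reads recovered from the deposited values ranged from 15363539 to 23263897 per left and from 13280705 to 18777633 per right ventricular library. These are bulk pieces of tissue, in which a change in the number of cells that make a transcript cannot be told apart from a change in RNA per cell. Marker genes of the cell types in the pieces could not be matched to the numbers, so their part in the results was not tested.

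**Figure D1:**
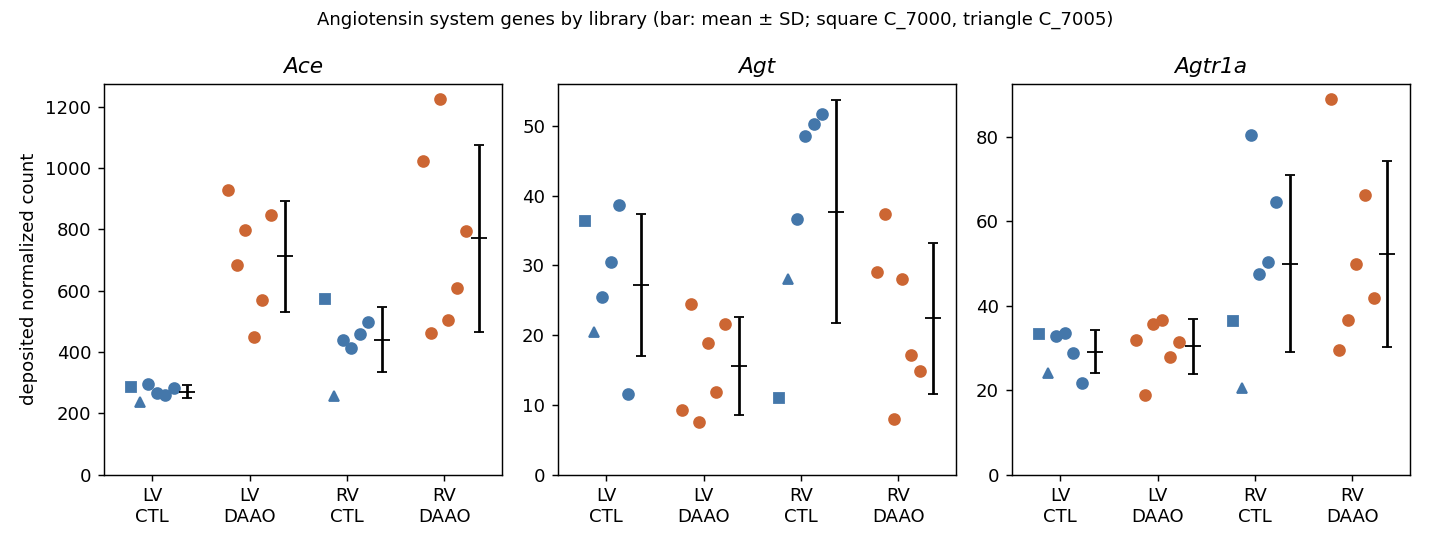
Deposited normalized counts (vertical axes, linear from 0, 1 panel per gene) in the 24 libraries, by ventricle and group, with the mean and SD (n = 6) beside each group. All 6 left ventricular DAAO libraries lie above all CTL libraries for Ace, from 449 against at most 295, while the groups overlap in every other panel and ventricle.

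In the left ventricle, the Ace normalized count was 237 at the lowest, 274 at the median and 295 at the highest of the 6 CTL libraries. In the 6 DAAO libraries it was 449 at the lowest, 740.3 at the median and 929 at the highest. Every DAAO library thus stood above every CTL library, a separation that 7.58% of the tested genes showed in this direction. Mean values of 271 ± 21.0 for CTL and 712 ± 181 for DAAO (SD, n = 6 per group) gave a log2 fold change of 1.35, with a standard error of 0.15 and a 95% interval from 1.02 to 1.68 (limma adjusted p = 4.27e-05). Of the 2430 genes that rose in the left ventricle, 314, Ace included, had a log2 fold change at least this large.

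For Ace in the left ventricle, the coefficient of variation of the CTL libraries was 7.75%, against 6.22% from counting error alone at a mean of 258.5 reads per library. In DAAO the coefficient of variation was 25.3%, against 3.61% from counting at a mean of 766.5 reads. The DAAO values covered a 2.07-fold range from D_7142 to D_7135, and the CTL values a 1.25-fold range. A test of the difference in spread was not made. No alternative setting ended the left ventricular call, and the log2 fold change stayed between 1.27 and 1.55 over 20 of them.

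In the right ventricle, the Ace normalized count was 255 at the lowest, 449 at the median and 571 at the highest in CTL, and 463, 701 and 1225 in DAAO. The groups overlapped here: 4 of 6 DAAO libraries exceeded all CTL libraries, while D_7137 at 463 and D_7142 at 505 lay within the CTL range. Mean values of 439.5 ± 106 for CTL and 769.9 ± 304 for DAAO (SD, n = 6 per group) gave a log2 fold change of 0.76, with a standard error of 0.25 and a 95% interval from 0.23 to 1.28 (limma adjusted p = 0.0356). Of the 1684 genes that rose in the right ventricle, 787, Ace included, had a log2 fold change at least this large.

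The right ventricular call of Ace lay close to the threshold. It was lost when C_7005, C_7118, C_7120, C_7121, D_7135, D_7138 or D_7146 was omitted, with a limma adjusted p between 0.0546 and 0.0797, and the log2 fold change over all 12 animals left out in turn ran from 0.60 to 0.88. Leaving out C_7000 and C_7005 together, whose numbers are well below the rest, gave a log2 fold change of 0.68 and a limma adjusted p of 0.0529. These 2 animals held the highest and the lowest right ventricular CTL value of Ace, 571 in C_7000 and 255 in C_7005, around the 414 to 499 of the 4 others. Without C_7118 or C_7121 the call was lost although the log2 fold change, 0.77 and 0.78, was not below that with all animals. Of the 20 alternatives, 8 lost the call and 12 kept it, and the direction was the same in every one. Among those that kept it, the adjusted p was 0.00692 with DESeq2, 0.0266 with edgeR and 0.0131 with limma on equal totals.

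**Figure D2:**
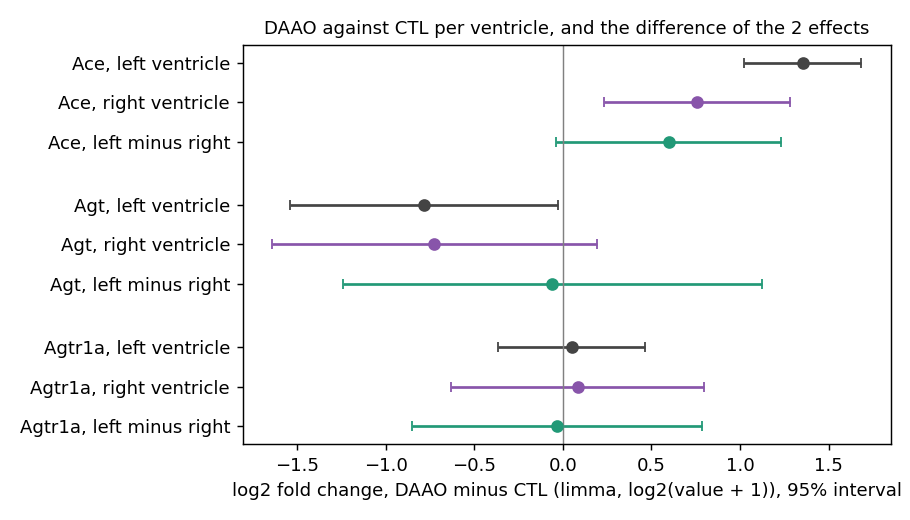
Log2 fold changes of DAAO against CTL on the log2(normalized count + 1) scale (horizontal axis) with 95% intervals from limma, for each gene in each ventricle and for the left minus the right effect. The interval lies wholly above 0 for Ace in both ventricles and wholly below 0 for Agt in the left, where the adjusted p was 0.0948.

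Agt, the precursor, was represented by few reads. Its left ventricular normalized count was 11.5 at the lowest, 28.0 at the median and 38.7 at the highest in CTL, and 7.53, 15.3 and 24.4 in DAAO. The groups overlapped, with 4 of 6 CTL libraries above every DAAO library and 2 of 6 DAAO libraries, D_7135 and D_7138, below every CTL library. The DAAO mean of 15.6 ± 7.0 was 57.4% of the CTL mean of 27.2 ± 10.2 (SD, n = 6 per group). The log2 fold change of -0.78 (SE 0.35, 95% interval from -1.54 to -0.03) had an unadjusted limma p of 0.0429 and an adjusted p of 0.0948, so it did not pass. Single CTL animal C_7123, the lowest of its group at 11.5 normalized counts from 9 reads, bore on this: without it the log2 fold change was -0.998 and the limma adjusted p 0.0335. Over all 19 alternatives the adjusted p ran from 0.0335 to 0.191.

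Right ventricular Agt had a normalized count of 11.1 at the lowest, 42.6 at the median and 51.8 at the highest in CTL, and of 7.96, 22.6 and 37.3 in DAAO. The DAAO mean of 22.4 ± 10.9 was 59.4% of the CTL mean of 37.7 ± 16.0 (SD, n = 6 each), close to the proportion in the left ventricle, and 3 of 6 CTL libraries lay above every DAAO library. The log2 fold change of -0.72 (SE 0.43, 95% interval from -1.64 to 0.19) did not pass (limma adjusted p = 0.221). The 2 lowest CTL values were those of C_7000 at 11.1 and C_7005 at 28.0, below the 36.7 to 51.8 of the 4 other CTL animals. Without these 2 animals, Agt was called lower in the right ventricular DAAO libraries, with a log2 fold change of -1.17 and a limma adjusted p of 0.0357. Leaving out 1 animal at a time gave no call, with log2 fold changes from -1.03 without C_7000 (limma adjusted p = 0.0576) to -0.48 without D_7138 (limma adjusted p = 0.427). Without C_7005 alone it was -0.78 (limma adjusted p = 0.212).

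Agt had 8 to 43 reads per left and 10 to 49 reads per right ventricular library. Counting error alone would give a coefficient of variation of 19.3% in left CTL and 24.9% in left DAAO libraries, where 37.5% and 44.9% were measured. In the right ventricle counting gives 17.1% and 20%, against measured values of 42.4% and 48.5%. The measured spread thus exceeded counting error in all 4 groups. In the right ventricle the interval of the difference includes both no change and a halving or more, and these data do not separate them.

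Agtr1a, the receptor, did not pass the test in either ventricle. In the left ventricle its normalized count was 21.8 at the lowest, 30.8 at the median and 33.5 at the highest in CTL, and 18.8, 31.6 and 36.5 in DAAO. The groups overlapped almost entirely. Their means were 29.1 ± 5.08 and 30.4 ± 6.48 (SD, n = 6 each), a log2 difference of 0.05 with a standard error of 0.19 (limma adjusted p = 0.858). The 95% interval, from -0.36 to 0.46, leaves out a doubling or a halving on this scale. The measured coefficients of variation, 17.5% in CTL and 21.3% in DAAO, were near the 18.9% and 17.7% that counting alone gives at 17 to 38 reads per library.

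In the right ventricle, Agtr1a spread more widely in both groups. Its normalized count was 20.5 at the lowest, 48.9 at the median and 80.5 at the highest in CTL, and 29.5, 45.9 and 89.0 in DAAO. The means of 50.0 ± 21.0 and 52.2 ± 22 (SD, n = 6 each) differed by far less than the spread within either group (log2 difference 0.08, standard error 0.33, limma adjusted p = 0.873). The 95% interval ran from -0.63 to 0.80, so changes of moderate size in either direction are not excluded. Coefficients of variation were 42.0% in CTL and 42.2% in DAAO, where counting gives 14.9% and 13.0% at 19 to 107 reads. The sign of this small difference turned to -0.28 without C_7000 and C_7005 (limma adjusted p = 0.511), the animals with the 2 lowest right ventricular CTL values of Agtr1a, 36.5 and 20.5.

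**Figure D3:**
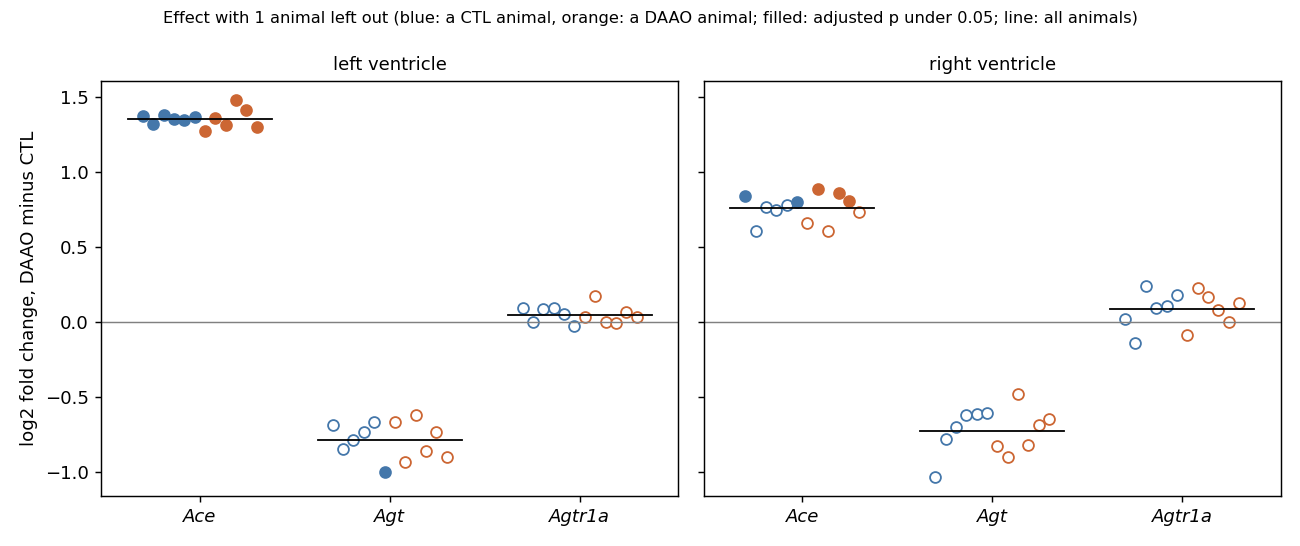
Log2 fold change of DAAO against CTL (vertical axis) for each gene and ventricle with 1 animal left out at a time; blue points leave out a CTL and orange points a DAAO animal, filled points have an adjusted p under 0.05, and the black line is the value with all animals. Left ventricular Ace is filled throughout, right ventricular Ace for 5 of the 12 animals left out, Agt for 1 animal in the left and none in the right ventricle, and Agtr1a for none.

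Whether the DAAO effect differed between the chambers was tested as the left minus the right effect in 1 limma fit over all 24 libraries. This fit ignored the pairing, treating the left and right library of an animal number as independent. None of the 3 genes was called in it, where 2.93% of 13344 genes were. For Ace the left effect exceeded the right by 0.60 on the log2 scale (SE 0.31, 95% interval from -0.04 to 1.23, limma adjusted p = 0.320). With the animal number as a replicate block, which keeps the pairing, the difference of 0.60 had a limma adjusted p of 0.0499. This was just under the threshold, in a fit that called 8.03% of genes. The limma p before adjustment was 0.0640 without and 0.0040 with the block, so the outcome for Ace depends on the pairing. That pairing is less certain in CTL. Over all genes compared, the left libraries of C_7118, C_7120 and C_7123 were not most like the right library of their own number. The fit with the block was not repeated with animals left out. Over all alternatives for the Ace difference the limma, edgeR or DESeq2 adjusted p ran from 0.0499 to 0.487, and the difference from 0.47 to 0.71. For Agt the difference was -0.06 (SE 0.57, 95% interval from -1.24 to 1.12, limma adjusted p = 0.977) and for Agtr1a it was -0.03 (SE 0.40, 95% interval from -0.85 to 0.79, limma adjusted p = 0.981). For both of these the interval is wider than the DAAO effect measured in either chamber.

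The level in each chamber was set side by side as recovered reads scaled to the same total in every library (RPM), because the tables were normalized separately, and was not tested. All 3 genes stood higher in the right than in the left library of most animals. The share of all genes that did so was not counted, so these values do not set the 3 genes apart from others. The log2 ratio of Ace to Agtr1a inside a library was 3.24 on the left and 3.22 on the right in CTL, and 4.54 and 3.89 in DAAO. Ace was higher on the right in 6 of 6 CTL animals, at 25.6 ± 6.19 against 14.2 ± 1.22 RPM (SD, n = 6). In DAAO it was higher on the right in 5 of 6 animals, at 54.7 ± 24.6 against 43.2 ± 12.4, with D_7137 the exception at 28.4 on the right and 37.4 on the left. The mean log2 ratio of left to right for Ace was -0.82 ± 0.35 for CTL and -0.27 ± 0.39 for DAAO (SD, n = 6 per group).

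Agtr1a was higher on the right in 5 of 6 CTL and 6 of 6 DAAO animals, at 2.88 ± 1.11 against 1.52 ± 0.28 RPM in CTL and 3.69 ± 1.80 against 1.84 ± 0.43 in DAAO (SD, n = 6). The exception was C_7005, at 1.24 on the right and 1.43 on the left. Agt was higher on the right in 5 of 6 animals of each group, at 2.19 ± 0.91 against 1.42 ± 0.53 in CTL and 1.53 ± 0.68 against 0.92 ± 0.37 in DAAO (SD, n = 6). The exceptions were C_7000, with 2.07 on the left and 0.67 on the right, from 36 and 10 reads, and D_7146, with 1.33 and 1.11. The widest log2 gap, with the right higher, was that of C_7123, with 0.59 and 2.94 from 9 and 49 reads.

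**Figure D4:**
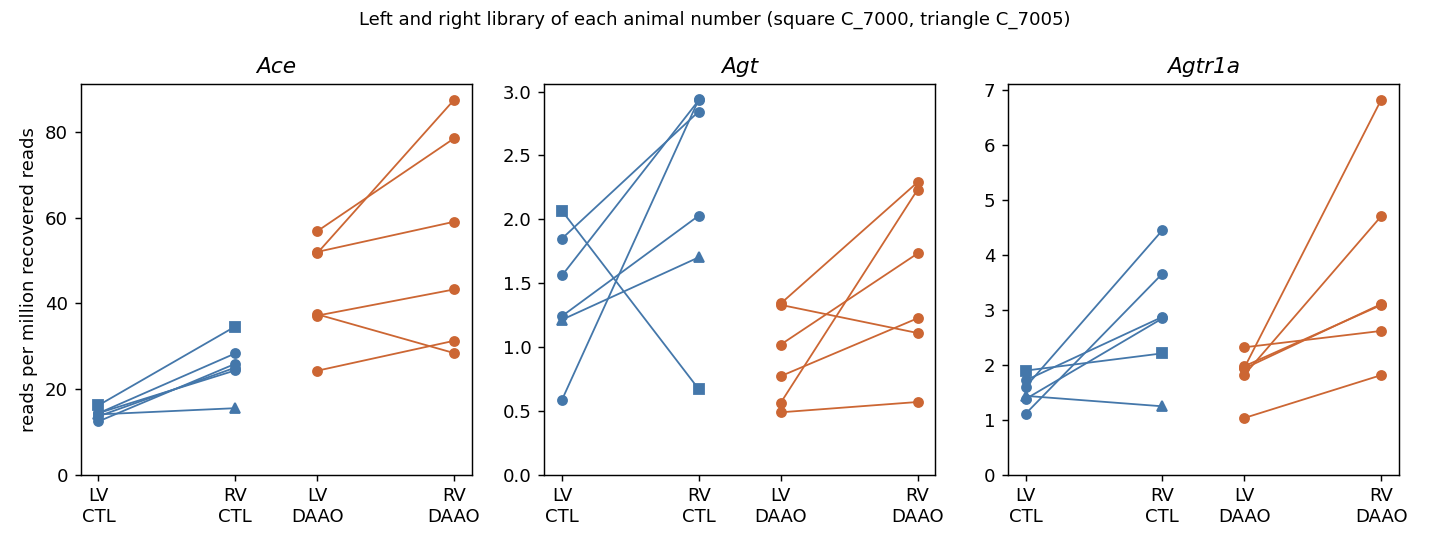
Recovered reads per library total, in RPM (vertical axes, linear from 0, 1 panel per gene) in the left and right library of each animal number, joined by a line, for CTL (blue) and DAAO (orange). Lines slope up to the right ventricle for 6 of 6 CTL and 5 of 6 DAAO animals for Ace, and the DAAO animals start higher on the left than any CTL animal.

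For Ace, animals that were high in 1 chamber tended to be high in the other, but with 6 animals per group this did not pass a test. Over all genes compared, the left libraries of C_7118, C_7120 and C_7123 were not most like the right library of their own number. The CTL values here are less certain for that reason. Pearson's r between left and right log2 values was 0.82 in CTL (exact permutation p = 0.0528, adjusted p = 0.300 over 6 relations) and 0.73 in DAAO (exact permutation p = 0.100, adjusted p = 0.300). Spearman's rho was 0.54 (exact permutation p = 0.297) and 0.66 (exact permutation p = 0.175), each with an adjusted p of 0.711. Without the 2 animals farthest from the median left value, r was 0.81 in CTL and 0.74 in DAAO, over the few animals left. The left CTL values of Ace varied little more than counting error (7.75% against 6.22%), so r in CTL is uncertain. For Agt, r was -0.35 in CTL (rho -0.20) and 0.55 in DAAO (rho 0.49), and for Agtr1a it was 0.21 (rho -0.14) and 0.39 (rho 0.26). Exact permutation p values of these 4 were 0.479, 0.246, 0.706 and 0.465 for r, with adjusted values from 0.492 to 0.706, and 0.714, 0.356, 0.803 and 0.658 for rho, with adjusted values from 0.711 to 0.803. Without the 2 farthest animals the same 4 values of r were -0.46, -0.41, -0.06 and -0.55. The positive values for Agt and Agtr1a thus changed sign. Few animals remain, over a narrower range, so this does not show what the positive values rest on.

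Ratios between the genes inside a library do not depend on how libraries were scaled. They are ratios of reads, not of molecules, since the genes differ in length, so only their differences between groups carry meaning. The log2 ratio of Ace to Agt in the left ventricle was 3.42 ± 0.66 for CTL and 5.61 ± 0.91 for DAAO (SD, n = 6 per group), and 5 of 6 DAAO libraries exceeded all CTL libraries. In the right ventricle it was 3.67 ± 1.01 and 5.18 ± 1.27, with 2 of 6 DAAO libraries above all CTL libraries. The overlap on the right came from C_7000, where 517 reads of Ace stood beside 10 of Agt, a log2 ratio of 5.69.

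The log2 ratio of Ace to Agtr1a was 3.24 ± 0.25 in CTL and 4.54 ± 0.54 in DAAO in the left ventricle, with 5 of 6 DAAO libraries above all CTL libraries. On the right it was 3.22 ± 0.53 and 3.89 ± 0.70, with 3 of 6 above. That of Agtr1a to Agt, which leaves out the enzyme, was 0.18 ± 0.46 and 1.07 ± 0.93 in the left and 0.45 ± 0.82 and 1.29 ± 0.92 in the right ventricle (SD, n = 6 each). It overlapped between the groups in both chambers. On the left 4 of 6 DAAO libraries stood above all CTL libraries, and on the right 2 of 6. These ratios are given as a description, without a test.

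**Figure D5:**
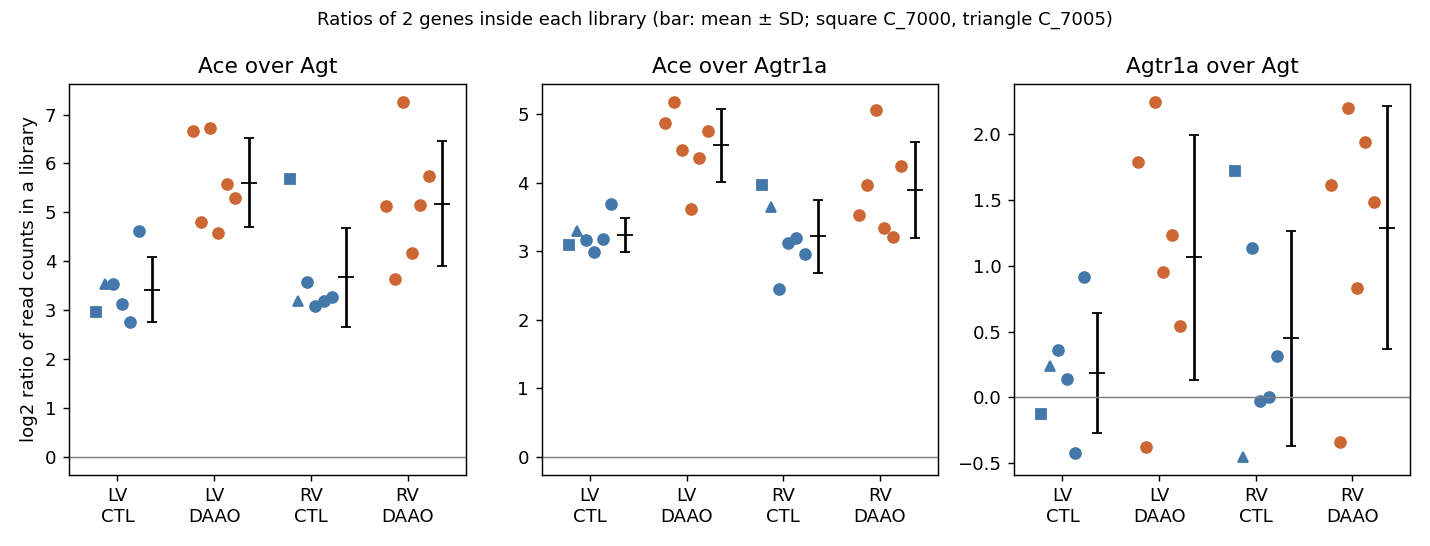
Log2 ratio of the read counts of 2 genes in the same library (vertical axes, 1 panel per pair), by ventricle and group, with the mean and SD (n = 6) beside each group. In the left ventricle 5 of 6 DAAO libraries lie above all CTL libraries for Ace over Agt and for Ace over Agtr1a, and D_7142 (Ace over Agt 4.57, Ace over Agtr1a 3.62) does not.

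The genes whose pattern over libraries was most like that of each gene were looked for among the 13343 others with a mean of at least 10 in both tables. Likeness was the lower of the 2 Pearson correlations of deviations from the group mean, 1 per ventricle over 12 libraries, so that the DAAO difference itself does not enter. For Ace it was highest for ENSRNOG00000016119 (r of 0.80 in the left and 0.83 in the right ventricle). On the left this gene had 117 ± 29.3 normalized counts in CTL against 167 ± 39.2 in DAAO, and 127 ± 61.3 and 178 ± 46.7 on the right (SD, n = 6 per group). For Agt it was ENSRNOG00000014440 (r of 0.74 and 0.82), at 404 ± 21.6 in CTL and 453 ± 30.3 in DAAO on the left and 345 ± 25.8 and 373 ± 31.7 on the right. For Agtr1a it was ENSRNOG00000058870 (r of 0.74 and 0.78), at 49.8 ± 8.29 and 62.8 ± 7.49 on the left and 15.3 ± 6.94 and 14.6 ± 3.12 on the right. The files do not pair these numbers with names. Libraries share depth and animals share both tables, and the best of so many genes is high by choice, so these values only describe the libraries.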

How the data were processed

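Per ventricle, the authors deposited a signal, the gene counts of 12 libraries over 1 size factor each, for 32883 Ensembl numbers. The submitters' processing notes name genome build Rnor_6.0, DESeq2 1.26.0, FastQC and STAR 2.7.0a, and the counter and its strand setting are not stated there. Every value above 0 was a whole multiple of its library's smallest value (100%, within 1e-06), which gave back the reads. Intervals from reads cover counting error only. In the 60 pairs of libraries of a group, chi-square was at least 12.3 per degree of freedom, beyond sampling noise, so each library was counted once.

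Genes with a mean of at least 10 were tested with limma 3.58.1 (trend option; R version 4.3.3) on log2(value + 1), two-sided, with Benjamini-Hochberg adjustment over all of them. This scale understates fold changes of low genes. Alternatives were pseudocounts of 0.5 and 5, a minimum mean of 100 or none, equal totals, edgeR 4.0.16 and DESeq2 1.42.0 on recovered reads, omitted animals, and a block by animal number. The 4-digit number was read as the animal. Left and right deviations from the group mean had a correlation over 13344 genes of 0.06 to 0.79 (median 0.55). It was highest with the own number for 9 of 12. The exceptions were all CTL: C_7118 (r of 0.06), C_7120 (0.06) and C_7123 (0.25). Comparisons by animal are thus less certain in CTL than in DAAO. The fits were run on simulated counts with the same dispersion in every gene and no paired animals. These settings differ from the data, so that run checks the code only. Named genes are the 3 genes, whatever their p, and the gene most like each. Lists of other angiotensin genes and of cell type markers could not be run without symbols. The genes and lists were chosen with earlier results of these data known.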

Additional observations from a re-analysis of the deposited data

How the results depend on the processing

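Of 177 values of the 9 log2 differences under alternative settings, 150 kept direction and side of the threshold, 8 lost the call, 3 gained one and 16 changed sign. All 20 alternatives kept left ventricular Ace. The cause of a change was not tested. Leaving out 1 animal at a time gave from 0.60 to 0.88 for right ventricular Ace, from -0.998 to -0.62 for left and from -1.03 to -0.48 for right ventricular Agt, from -0.027 to 0.18 for left and from -0.14 to 0.24 for right ventricular Agtr1a, and, for the left minus right effect, from -0.39 to 0.35 for Agt and from -0.21 to 0.14 for Agtr1a. Without C_7000 and C_7005 the values were 0.68 for right ventricular Ace, -1.17 for Agt and -0.28 for Agtr1a, and the left minus right effects were 0.44 for Agt and 0.32 for Agtr1a. With edgeR the left minus right effect of Agtr1a was 0.011. With the replicate block that of Ace, 0.60, passed the threshold, and no other call changed. With equal library totals the median gene stood at 0.21 (left) and 0.27 (right) in place of 0.01 and 0.02 on the log2 scale. Under them Ace was at 1.55 and 1.003, Agt at -0.60 and -0.49 and Agtr1a at 0.24 and 0.33, with no call changed. With a minimum mean of 100 only Ace was tested. Agt and Agtr1a rest on 8 to 107 reads per library, and their measured spread was near counting error only for left ventricular Agtr1a.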

Other observations

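Within DAAO, D_7137 and D_7138 stood at opposite ends for Agt in both chambers and for Ace in the right ventricle, a pair chosen after their values were seen. D_7138 had the highest right ventricular Ace (1225 normalized counts) and the lowest Agt in both chambers (7.53 in the left and 7.96 in the right). D_7137 had the lowest right ventricular Ace (463) and the highest Agt in both chambers (24.4 and 37.3), with the lowest Agtr1a in both (18.8 and 29.5). The Agt values came from few reads, 8 and 10 in D_7138 and 26 and 43 in D_7137. On the left the next DAAO values came from 11 reads in D_7135 and 22 in D_7146. Which animal stood at each left end is thus within counting error. Between D_7138 and D_7137 themselves the 95% counting intervals of the Agt reads did not overlap. They were 3.45 to 15.8 against 17.0 to 38.1 on the left and 4.80 to 18.4 against 31.1 to 57.9 on the right. For Agtr1a in the right ventricle they were not opposite, since D_7138 stood at 36.6, next to D_7137. In the left ventricle neither was at an end of the group for Ace, at 682 in D_7137 and 798 in D_7138. No library lay far enough from its group of 6 to pass Dixon's test, in 12 groups tested.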
